A study of Mus musculus with 9 samples.

Results

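Broad promoter acetylation domains were examined in the H3K27ac peak list of wild-type (WT) mouse forelimb buds. A domain was a WT peak of at least 1500 bp that overlapped the promoter window of a protein-coding transcript start, which reached 2 kb upstream and 1 kb downstream. This rule found 773 domains among 25096 WT peaks, which was 5.76% of the 13429 WT peaks that touched such a window (promoter peaks). Most broad peaks lay at promoters, since 773 of the 854 WT peaks of at least 1500 bp (90.5%) met the rule. The domains were chosen by the width of the WT peak, so their width in WT is a description, and any list that did not take part in the choice will tend to cover them less.

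H3K27ac was measured by MicroChIP-seq, a chromatin immunoprecipitation method for small tissue amounts, on single pairs of forelimb buds at embryonic stage E10.5 (33 to 34 somites), with 2 immunoprecipitated libraries and 1 input for each of 3 genotypes. The genotypes were WT, Shh-/-, and Shh-/-;Gli3-/- (double mutant). According to the methods, the mutants carried the Shh tm1amc and Gli3 Xt-J null alleles, both kept on Swiss Webster mice, and WT littermates were the controls for the double mutants. The labels give the strain as mixed. Each genotype is represented by 1 peak list without replicate values, which leaves the spread between embryos unknown for every difference given below and no test was made. The labelled tissue was checked against its markers: Tbx5, which specifies the forelimb, had a promoter peak in all 3 lists, while 0 of 4 hindlimb genes (Pitx1, Tbx4, Isl1 and Hoxc10) had one in any list.

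H3K27ac is placed on nucleosomes by the acetyltransferases EP300 and CREBBP and marks active promoters and enhancers. At most active promoters it flanks a narrow nucleosome-poor gap at the transcription start, and at some genes, among them regulators of cell identity and very highly transcribed genes, it spreads further into the gene. In the limb bud, SHH made at the posterior margin prevents GLI proteins from being processed into repressors. Without SHH the GLI3 repressor acts throughout the limb bud, and removing GLI3 as well relieves this repression without restoring GLI activator.

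The promoter sequences of 6 domains are shown because they stand for the patterns described below: Ptch1 and Cdk6 had the lowest covered length in Shh-/- relative to WT, Rps9 had less than WT in both mutants, Mecom had more in both, Sall1 had the most relative to WT in the double mutant, and Meis2 was the widest in WT. Each sequence is the RefSeq promoter (GRCm38.p6) from 250 bases before to 50 bases after a start, 5′ to 3′ on the strand of the gene, and capitals mark CpG dinucleotides. The RefSeq start can differ from the start used for positions below, and in Ptch1 it lies 1200 bp upstream of it. The Sall1 sequence lies outside its WT domain (chr8:89041800-89043499), which begins 663 bp downstream of the start. The Rps9 sequence lies only partly inside its domain. The windows are chr13:63565686-63565985 (minus strand), chr5:3343643-3343942 (plus), chr7:3703791-3704090 (plus), chr3:30509710-30510009 (minus), chr8:89044113-89044412 (minus) and chr2:116064570-116064869 (minus).
Ptch1: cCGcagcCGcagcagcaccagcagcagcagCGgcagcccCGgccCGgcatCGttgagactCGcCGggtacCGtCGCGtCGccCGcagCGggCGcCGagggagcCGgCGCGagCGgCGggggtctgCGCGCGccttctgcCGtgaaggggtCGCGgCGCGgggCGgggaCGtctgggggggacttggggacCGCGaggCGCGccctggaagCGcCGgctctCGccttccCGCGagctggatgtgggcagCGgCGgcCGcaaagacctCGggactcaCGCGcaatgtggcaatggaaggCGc
Cdk6: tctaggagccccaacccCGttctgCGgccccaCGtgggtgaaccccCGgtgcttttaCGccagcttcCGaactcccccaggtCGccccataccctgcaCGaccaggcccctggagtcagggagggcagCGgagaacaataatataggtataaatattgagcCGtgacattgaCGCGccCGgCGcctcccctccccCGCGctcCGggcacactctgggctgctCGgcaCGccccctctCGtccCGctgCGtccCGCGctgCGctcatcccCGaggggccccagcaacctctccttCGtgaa
Rps9: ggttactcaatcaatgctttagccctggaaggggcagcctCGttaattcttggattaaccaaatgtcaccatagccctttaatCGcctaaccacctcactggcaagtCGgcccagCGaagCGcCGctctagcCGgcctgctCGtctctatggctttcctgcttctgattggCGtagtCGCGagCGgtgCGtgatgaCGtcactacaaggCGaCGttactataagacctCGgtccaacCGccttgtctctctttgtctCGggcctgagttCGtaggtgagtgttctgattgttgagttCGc
Mecom: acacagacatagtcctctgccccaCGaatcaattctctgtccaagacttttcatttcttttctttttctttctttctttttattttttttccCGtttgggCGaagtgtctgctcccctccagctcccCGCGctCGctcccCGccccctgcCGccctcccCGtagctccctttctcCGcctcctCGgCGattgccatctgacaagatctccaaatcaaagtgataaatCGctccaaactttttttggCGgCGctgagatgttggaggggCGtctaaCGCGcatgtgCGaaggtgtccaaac
Sall1: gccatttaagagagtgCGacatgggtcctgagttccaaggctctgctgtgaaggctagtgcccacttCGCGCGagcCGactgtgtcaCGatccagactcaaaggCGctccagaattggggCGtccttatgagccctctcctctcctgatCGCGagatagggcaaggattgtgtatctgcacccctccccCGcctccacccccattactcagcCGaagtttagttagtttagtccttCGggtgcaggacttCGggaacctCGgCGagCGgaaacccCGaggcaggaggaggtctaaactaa
Meis2: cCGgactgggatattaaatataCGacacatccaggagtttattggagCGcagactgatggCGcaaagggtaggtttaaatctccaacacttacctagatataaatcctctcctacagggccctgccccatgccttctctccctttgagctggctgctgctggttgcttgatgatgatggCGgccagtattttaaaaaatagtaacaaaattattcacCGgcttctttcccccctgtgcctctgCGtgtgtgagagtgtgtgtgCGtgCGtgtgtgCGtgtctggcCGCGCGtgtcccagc

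These 300 bases held 47 CpG in Ptch1, 27 in Cdk6, 21 in Rps9, 19 in Mecom, 18 in Sall1 and 13 in Meis2. Their GC content ran from 76.3% in Ptch1 to 51.0% in Meis2. The domains as a group were rich in CpG: in the 500 bp on each side of the lead start, which is the start nearest to the centre of a domain, the median GC content was 66.5% over the domains and 60.8% over all WT promoter peaks, and the median ratio of observed to expected CpG was 0.864 and 0.777. GC content also rose with peak width below the minimum, from 59.5% for promoter peaks under 500 bp to 64.2% for those from 1000 to under 1500 bp.

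RefSeq promoters could be matched to the lead genes of 566 domains, which gave 558 distinct promoters. The letters GGGCGG, a box bound by SP and KLF factors, occurred on either strand in 425 of them (76.2%) and in 47.7% of all 20148 protein-coding promoters. TATAAA occurred in 31 (5.56%, against 12.2%) and CCAAT in 177 (31.7%, against 37.8%). The GLI motif TGGGTGGTC occurred in 0 of 558, which allows a share of up to 0.538%, and in 38 of all 20148 promoters (0.189%). None of these strings contains another, and a match is a description of the window, not a bound site. The shares are set against all protein-coding promoters, not against those with a WT peak, and the 2 sets differed in base composition. Median GC content was 68.3% in the 558 promoters and 57% in all 20148. The median ratio of observed to expected CpG was 0.90 and 0.588 in the same order. The part of base composition in the motif shares was not tested.

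The 773 domains were 1500 to 7500 bp wide in WT, with a median of 1850 bp. They touched the promoter windows of 876 of 21875 protein-coding genes (4.0%), and 114 domains (14.7%) touched more than 1 gene. The lead start lay inside 691 domains (89.4%), and 554 (71.7%) had more WT cover downstream than upstream of it. All had a false discovery rate (FDR) below 0.05 in the WT list, and 647 (83.7%) stood in its top 10% by the authors' order. The median of the authors' largest log2 fold over input was 4.68 for the domains and 3.06 for all WT promoter peaks.

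The widest domain was that of Meis2, a homeobox gene of the proximal limb, at 7500 bp (chr2:116060650-116068149). It was followed by Meis1, its paralog, at 6800 bp, Hist1h4d, a histone H4 gene, at 5300 bp, Ptma, which encodes prothymosin alpha, at 5250 bp, and Marcks, an actin-binding protein kinase C substrate, at 5000 bp. The other 7 of the 12 named as widest were Zfp462, Arid2, Bahcc1, Tshz1, Sox11, Lhx9 and Zfp36l2, from 4900 to 4150 bp, where Zfp36l2 tied with Hnrnpa2b1.

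Of the lists of limb genes, transcription factors of the limb mesenchyme had the largest share with a domain, at 20 of 40 genes (50%). These included Tbx5, Prrx1, Prrx2, Twist1, Lmx1b, Shox2, Lhx2, Lhx9, Tbx15, Tbx18, Meis1 and Meis2. Hox genes had one at 11 of 39 (28.2%), posterior and digit genes at 6 of 20, HH pathway genes at 5 of 16, and chromatin regulators at 11 of 33. Genes of general cell function also carried domains, with 52 of 67 replication-dependent histone genes (77.6%), 10 of 21 housekeeping genes (47.6%), 7 of 12 heat shock genes (58.3%) and 13 of 83 cytosolic ribosomal protein genes (15.7%). None of the marker genes for blood (13 genes), endothelium (12), ectoderm (16) or neural crest (6) had a domain, and 1 of 9 muscle precursor markers did.

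For each domain, the length covered by peaks of each list was summed in the WT span extended by 2 kb on each side. A domain was called shrunk when this covered length was at most 1/1.5 of that in WT, grown when it was at least 1.5 times WT, and split when 2 or more peaks of the mutant list touched the WT span. Every domain kept a peak: 0 of 773 lacked one in Shh-/- and 0 of 773 in the double mutant, which allows a share of up to 0.388% at a limit of 3 counts. The median covered length was 2150 bp in WT, 2150 bp in Shh-/- and 2450 bp in the double mutant. The median ratio to WT was 0.975 in Shh-/- and 1.1 in the double mutant, compared with 1.1 and 1.23 over all WT promoter peaks. Of all 773 domains, 329 (42.6%) had more covered length than WT in Shh-/- and 407 (52.7%) had less, and 583 (75.4%) had more in the double mutant.

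In Shh-/-, 27 domains (3.49%, 95% interval 2.41 to 5.03%) were shrunk, against 10.8% of all WT promoter peaks, and 5 (0.647%) were grown, against 21.8%. In the double mutant 3 domains (0.388%) were shrunk, against 7.05% of all WT promoter peaks, and 20 (2.59%, 1.68 to 3.96%) were grown, against 28.0%. Both shares fell as WT width rose. The grown share in Shh-/- was 30.9% for promoter peaks under 500 bp, 13.6% from 500 to under 1000 bp and 2.90% from 1000 to under 1500 bp. The shrunk share in Shh-/- was 14.1%, 7.35% and 5.64% in the same order. In the double mutant it was 10.6%, 2.89% and 1.24%. A peak under 500 bp with no other peak in its window can pass a factor of 1.5 through a few 50 bp steps, whereas a domain cannot. The part of this in the width trend was not tested.

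The lists themselves differed in extent. The WT list covered 10.4 Mb, the Shh-/- list 12.9 Mb (125% of WT) and the double mutant list 17.1 Mb (166% of WT), so growth of a domain has to be read against lists of unequal length. The mutant lists were then cut from the bottom of the authors' order to the covered length of the WT list. At this setting 50 domains (6.47%) were shrunk and 3 (0.388%) grown in Shh-/-, against 20.9% and 15.8% of all WT promoter peaks. In the double mutant 15 (1.94%) were shrunk and 8 (1.0%) grown, against 32.5% and 13.0%. Whether the longer lists came from depth, from the immunoprecipitation or from the tissue was not tested, and the genotype and its list cannot be told apart.

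Splitting was more frequent than shrinking or growth in both mutants at these settings, an order that turned in each when peaks within 500 bp were merged. In Shh-/-, 277 domains (35.8%, 32.5 to 39.3%) were covered by 2 or more peaks, against 7.13% of all WT promoter peaks. In the double mutant 89 domains (11.5%, 9.45 to 14.0%) were split, against 3.0%. Narrow peaks leave little room for 2 peaks, and the split share in Shh-/- rose with WT width from 1.32% under 500 bp to 22.2% from 1000 to under 1500 bp. Of the 277 domains split in Shh-/-, 226 (81.6%) were covered by a single peak in the double mutant, against 88.5% of all domains. Of the 89 split in the double mutant, 38 (42.7%) were single in Shh-/-, against 64.2% of all domains. With peaks within 500 bp merged in every list, 1745 domains met the rule, of which 93 were split and 137 shrunk in Shh-/-, and 27 were split and 100 grown in the double mutant, so splitting was then less frequent than shrinking in the one and growth in the other.

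**Figure D1:**
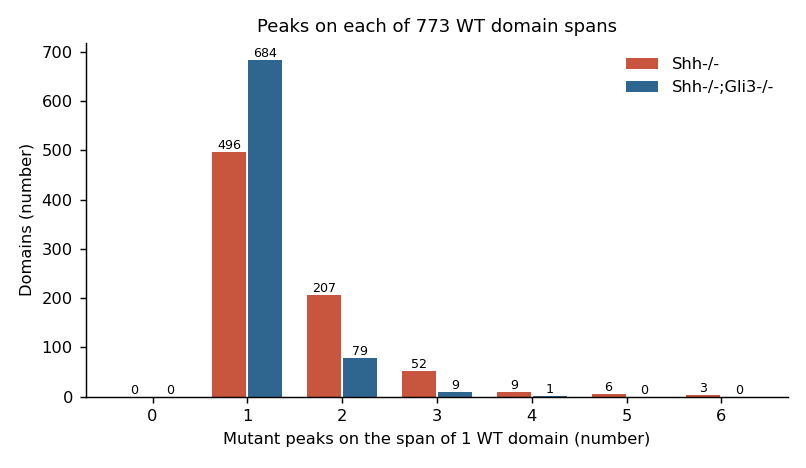
Number of mutant peaks that touched the span of each WT domain (x axis) against the number of domains (y axis), with 1 bar per genotype and the count above it. In Shh-/- 496 domains had 1 peak and 207 had 2, and in the double mutant 684 had 1 and 79 had 2.

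Splitting left most of the covered length in place. Of the domains split in Shh-/-, 260 of 277 (93.9%) kept a covered length within a factor of 1.5 of WT. The 377 gaps between the Shh-/- peaks had a median of 150 bp and ran from 50 to 1000 bp, and 169 of them (44.8%) were no longer than 100 bp. The 100 gaps of the double mutant had a median of 100 bp. As a result 537 domains (69.5%) still held a peak of at least 1500 bp in Shh-/-, 711 (92.0%) did in the double mutant, and 518 (67%) did in both.

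Some gaps in Shh-/- lay near starts. Of the 377, 167 (44.3%) were centred within 500 bp of the lead start and 74 (19.6%) held a protein-coding start. Of the 100 gaps in the double mutant, 34% and 11% did. The lead start is the one nearest to the domain centre, and the median domain was 1850 bp wide. Many gaps would therefore lie this near wherever they fell, and the share for gaps placed anywhere was not computed. At the lead start itself 91.5% of domains were covered in WT, 84.2% in Shh-/- and 94.8% in the double mutant. At 100 bp upstream the shares were 85.0%, 75.4% and 90.2%. At 300 bp downstream they were 98.4%, 97.4% and 99.2%, so the shares were closer together there.

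**Figure D2:**
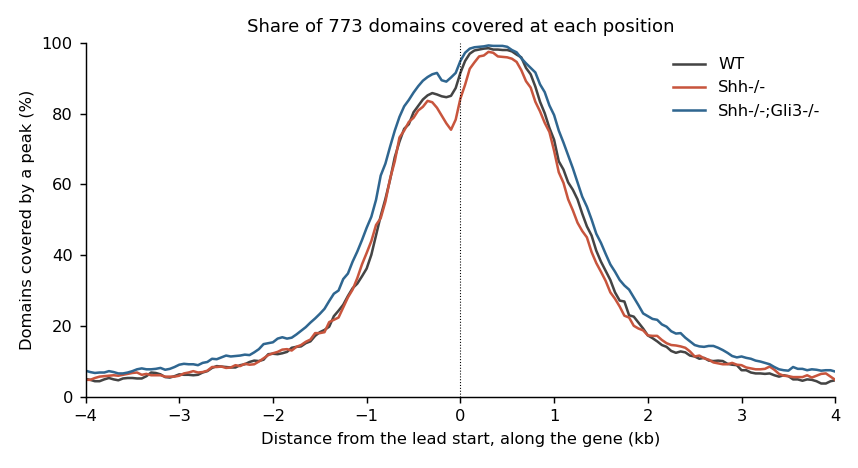
Share of the 773 domains covered by a peak (y axis, %) at each distance from the lead start along the gene (x axis, kb), with 1 line per genotype. All 3 lines dip just upstream of the start, where Shh-/- reaches 75.4% and WT 85.0% at 100 bp upstream.

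Splitting was also seen in the other direction. When broad promoter domains were instead chosen in the Shh-/- list (865 domains) and measured in WT, 321 (37.1%) were split, 89 (10.3%) were shrunk and the median ratio was 0.906. Domains chosen in the double mutant (1443) were split in WT in 747 cases (51.8%) and shrunk in 269 (18.6%), with a median ratio of 0.824. The share of WT domains split in Shh-/- was therefore no larger than the share of Shh-/- domains split in WT, and the choice of the list on which width is measured moves these counts. The comparison of the 2 mutants below does not depend on that choice in the same way, because neither mutant list took part in choosing the WT domains.

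Between the mutants, 595 of 773 domains (77.0%) had more covered length in the double mutant than in Shh-/-, 145 (18.8%) had less and 33 were equal. Past a factor of 1.5, 61 domains (7.89%, 6.19 to 10%) were wider in the double mutant, against 20.2% of all WT promoter peaks. In the other direction 2 domains (0.259%, Prdm16 and Pth1r) were narrower, against 10.8% of all WT promoter peaks. The median ratio of double mutant to Shh-/- was 1.12 over the domains and 1.11 over all WT promoter peaks with a Shh-/- peak in the window, so the domains as a group differed little from other promoters here. With the mutant lists cut to equal covered length, 59 domains (7.63%) were wider in the double mutant, against 21.6% of all WT promoter peaks. With the WT span alone, without the flanks, 11 (1.42%) were, against 24.8%.

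HH pathway genes had 5 domains. Ptch1, which encodes the SHH receptor and is a direct transcriptional target of the pathway, was covered over 4450 bp in WT, 1600 bp in Shh-/- and 5550 bp in the double mutant. Its WT peak of 3600 bp (chr13:63562700-63566299), which spans the promoter printed above, was replaced in Shh-/- by 5 peaks of 150 to 750 bp, and in the double mutant by 1 peak of 3750 bp. In Shh-/- 2 of the 5 peaks had an FDR above 0.05 (0.0832 and 0.156).

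The other pathway domains did not share this pattern. Gli3, the gene that carries the Xt-J null allele in the double mutant, was covered over 5050 bp in WT, 4650 bp in Shh-/- and 5750 bp in the double mutant. Gli2, which encodes the other main GLI activator and repressor, had 2700, 3200 and 3000 bp. Smo, the signal transducer, had 1650, 1700 and 2100 bp, and Gas1, a co-receptor for SHH, had 3500, 4550 and 4300 bp. Of the 5 domains, 1 was shrunk in Shh-/-, against 3.49% of all domains. All 5 exceeded WT in the double mutant, as did 75.4% of all domains. Gli1 and Hhip, other HH targets, were among the 11 of 16 listed genes with no domain.

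Cdk6, which encodes a kinase that drives entry into S phase, had the lowest ratio of all domains in Shh-/-. It was covered over 2400 bp in WT, 100 bp in Shh-/- and 3400 bp in the double mutant. The WT domain (chr5:3342950-3344449) was at the minimum width of 1500 bp, and the double mutant covered it with 1 peak of 3400 bp. The single Shh-/- peak of 100 bp had an FDR of 0.154, so with an FDR below 0.05 required in all lists Cdk6 had no Shh-/- cover at all.

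Hes1, a transcriptional repressor that responds to Notch, was the only domain shrunk in Shh-/- and grown in the double mutant, with 3700 bp in WT, 2100 bp in Shh-/- and 6000 bp in the double mutant. Within the WT span its Shh-/- cover came as 3 peaks of 200 to 400 bp. Frzb, a secreted Wnt antagonist, had 2150, 1250 and 2950 bp, and Tfap4, a bHLH transcription factor, had 2850, 1450 and 2400 bp. Hsp90aa1, a heat shock chaperone, had 2750, 1550 and 2900 bp. Of the 27 domains shrunk in Shh-/-, 15 (55.6%) reached the WT covered length or more in the double mutant. Of all domains, 75.4% exceeded WT there and 4.40% equalled it. Among the 27, 1 (Rps9) was shrunk in the double mutant too, against 0.388% of all domains. Of the same 27, 16 were also split in Shh-/-, against 35.8% of all domains.

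**Figure D3:**
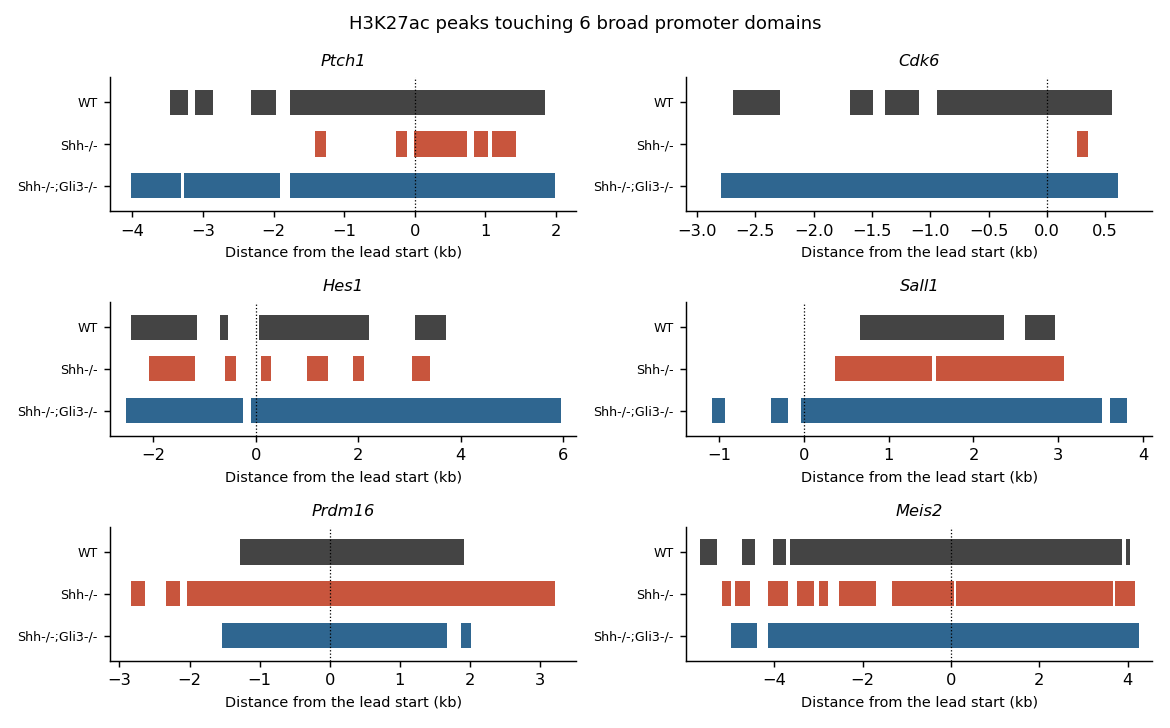
Peaks of the 3 lists at 6 domains, drawn as filled boxes against the distance from the lead start along the gene (x axis, kb; the dotted line is the start), in full even where they reach beyond the measured window. Ptch1 and Hes1 appear in Shh-/- as several short peaks, Cdk6 as 1 peak of 100 bp, Sall1 is widest in the double mutant and Prdm16 in Shh-/-, and the 7500 bp Meis2 domain is touched by 6 Shh-/- peaks and 1 double mutant peak.

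The 20 domains grown in the double mutant included 4 of the 13 Hox domains and 3 of the 6 domains of posterior and digit genes, against 2.59% of all domains. Sall1, a zinc finger gene of the posterior and digit list, had the highest ratio, with 2050 bp in WT, 2650 bp in Shh-/- and 4100 bp in the double mutant. Lin28b, a regulator of let-7 processing, had 2200, 1850 and 4250 bp, and Nr2f1, an orphan nuclear receptor, had 2100, 1750 and 3900 bp. Hoxb4 had 2000, 1550 and 3500 bp, Hoxd10 3300, 3500 and 5450 bp, and Hoxa11 2850, 3400 and 4350 bp.

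Of the 20 domains grown in the double mutant, 19 were under 2500 bp wide in WT, while the upper quartile of all domains was 2250 bp. In Shh-/- 15 of the 20 reached at least the WT covered length. Of all domains, 42.6% exceeded WT in Shh-/- and 4.79% equalled it. The grown domains not in the preceding paragraph were led by Pitpnc1, Hoxa7, Ep300, Irf2, Jarid2, Efnb2, Zic2, Zic5, Hcfc1, Rtkn, Fign, Hes1 and Mecom. Mecom led 2 domains. Growth was outside the WT peak by construction, since the WT peak is already covered in full.

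Mecom, a zinc finger transcription factor gene, was the only gene grown in both mutants. Its wider domain (chr3:30506700-30510449), which holds the promoter printed above, was covered over 3850 bp in WT, 6650 bp in Shh-/- and 6350 bp in the double mutant. The other, at an internal start, had 3550, 5000 and 5650 bp. The related gene Prdm16 differed from it, with 3200 bp in WT, 5650 bp in Shh-/- and 3350 bp in the double mutant. Lhx2, a homeobox gene of distal limb mesenchyme, had 2750, 4250 and 3900 bp, and Cdh11, a mesenchymal cadherin, had 2500, 3950 and 3550 bp. Lzts2, a leucine zipper protein gene, was the other domain grown in Shh-/-, with 2500, 3750 and 3100 bp. All 5 domains grown in Shh-/- reached at least the WT covered length in the double mutant, where 75.4% of all domains exceeded WT and 4.40% equalled it.

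The 3 domains shrunk in the double mutant were those of Pth1r, the parathyroid hormone receptor gene, with 1750 bp in WT, 2100 bp in Shh-/- and 1100 bp in the double mutant, of Rps9, a small ribosomal subunit gene, with 2650, 1400 and 1700 bp, and of Xkr5, with 1950, 1350 and 1300 bp. Rps9 was the only domain shrunk in both mutants. Its lost cover lay on the gene side: the WT peak reached 1924 bp downstream of the lead start, the main Shh-/- peak 674 bp and the double mutant peak 1124 bp.

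Gene lists differed in their covered length in Shh-/-. The 27 domains of replication-dependent histone genes, most of them in the clusters on chromosome 13, had a median ratio of 0.738 in Shh-/- against 0.975 over all domains. Of these, 8 were shrunk, against 3.49% of all domains, and 23 were split, against 35.8%. Less covered length than WT was found in 26 of the histone domains, compared with 52.7% of all domains. In the double mutant their median ratio was 1.03, 0 were shrunk or grown, and all 27 had more covered length than in Shh-/-, as did 77.0% of all domains. Hist1h3b, a histone H3 gene, had 3300 bp in WT, 1450 bp in Shh-/- and 3450 bp in the double mutant, and Hist1h4d had 6550, 5000 and 6750 bp with 6 separate Shh-/- peaks.

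Histone genes are near-identical copies, and how reads that match several copies were placed is not given in the sources used here, so each value may include reads of another copy. The domains are also not independent of each other, since the windows of 14 of the 27 overlapped that of another domain. Without the histone domains, 19 of 746 domains were shrunk in Shh-/- and 254 were split.

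Other genes of general function had less covered length than WT in Shh-/- as well. The 13 domains of cytosolic ribosomal protein genes had median ratios of 0.806 in Shh-/- and 1.08 in the double mutant, and 12 of 13 were below WT in Shh-/- (52.7% of all domains were) compared with 3 in the double mutant. Of the 10 housekeeping domains, 9 were below WT in Shh-/- (median 0.933, with 52.7% of all domains below WT). In Shh-/- 7 of them were split, against 35.8% of all domains. Gapdh, a glycolytic enzyme gene, had 2350, 2150 and 2700 bp, and Actb was the exception with 2600, 2900 and 2800 bp. None of the housekeeping domains was shrunk or grown in either mutant.

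Limb transcription factors lay on the other side. Of the 21 domains of limb mesenchyme factors, 16 had more covered length than WT in Shh-/- (42.6% of all domains did; median ratio 1.08). In the double mutant 18 did (75.4% of all domains, median ratio 1.18). Of the 21, 12 (57.1%) were split in Shh-/-, against 35.8% of all domains. In the double mutant 3 (14.3%) were split, near the 11.5% of all domains. Tbx5 was nearly level, with 6400 bp in WT, 6550 bp in Shh-/- and 6650 bp in the double mutant, as was Meis1 with 7550, 7450 and 7900 bp. Meis2 had 8550, 7850 and 9000 bp, with 6 peaks on its span in Shh-/- and 1 in the double mutant. Id2, an inhibitor of bHLH factors, went the other way in Shh-/-, with 5450, 3850 and 5850 bp and 5 Shh-/- peaks.

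The 6 domains of posterior and digit genes had median ratios of 1.07 in Shh-/- and 1.46 in the double mutant, against 0.975 and 1.1 over all domains. All 6 had more covered length in the double mutant than in WT (75.4% of all domains did) and than in Shh-/- (77.0% did). In the double mutant 3 of the 6 (Sall1, Hoxd10 and Hoxa11) were grown, against 2.59% of all domains. Hoxd9 had 5000, 4800 and 6800 bp, Tbx3, a T-box gene of the limb margins, 2900, 2650 and 4050 bp, and Ets2, an ETS factor gene, 2050, 2200 and 2750 bp. The 13 Hox domains had medians of 1.02 and 1.22, with 4 grown in the double mutant. The double mutant peak on Hoxd10 was 12050 bp wide and that on Hoxa7 10800 bp, so part of each lay outside the measured window.

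**Figure D4:**
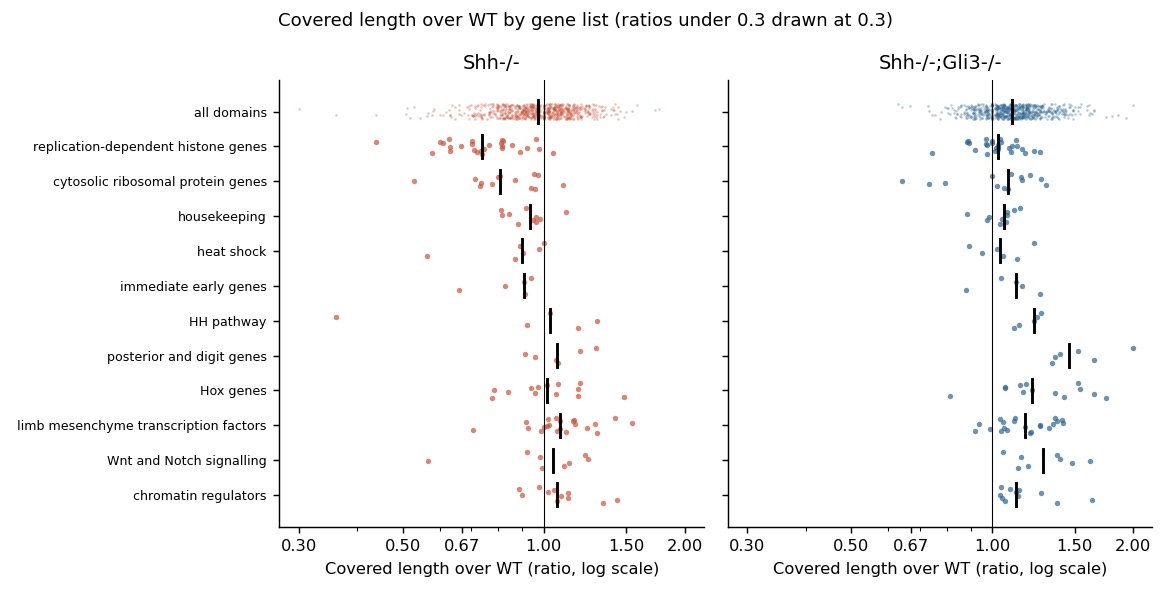
Ratio of covered length to WT (x axis, log scale) for every domain of each gene list, with 1 point per domain and a black bar at the median, in Shh-/- (left) and the double mutant (right). The histone list lies lowest in Shh-/- with a median of 0.738, and the posterior and digit list lies highest in the double mutant with a median of 1.46.

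Splitting in Shh-/- also varied with base composition, which the rule did not use. When the domains were ordered by GC content around the lead start, 118 of 258 domains in the lowest tertile (45.7%) were split in Shh-/-, 97 of 257 in the middle tertile (37.7%) and 62 of 258 in the highest tertile (24.0%). The median ratio to WT in Shh-/- was 0.952, 0.972 and 1.02 in that order, and 18, 6 and 3 domains were shrunk. In the double mutant the split shares were 11.2%, 13.2% and 10.1%, with no such order, while 16 of the 20 grown domains lay in the lowest tertile. The 27 histone domains had a median GC content of 52.6%, and the 20 domains grown in the double mutant 57.8%, against 66.5% over all domains. The part of base composition in these differences was not tested.

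The values near the minimum width moved smoothly. The 60 promoter peaks of 1450 bp, just outside the rule, had median ratios of 1.03 in Shh-/- and 1.13 in the double mutant, and the 52 domains of exactly 1500 bp had 1.0 and 1.16.

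Few markers of other cell types had a promoter peak, apart from muscle precursor genes in the double mutant. A promoter peak of any width was found in WT, Shh-/- and the double mutant at 2, 2 and 5 of 9 muscle precursor genes, at 0, 2 and 2 of 13 blood genes, at 1, 1 and 2 of 12 endothelial genes, at 0, 0 and 1 of 16 ectodermal genes and at 1, 1 and 1 of 6 neural crest genes. Their part in the differences was not tested, and in whole limb buds a change in the share of a cell type and a change within cells cannot be told apart.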

How the data were processed

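The authors made 3 peak lists, 1 per genotype, with CisGenome 2.1.0 from MicroChIP-seq reads on the mouse build mm10; the submitters' processing notes also name Bowtie2 2.2.5. Libraries were amplified with 12 PCR cycles. Each list is attached to replicate 1 of its genotype and pooling is not stated in the labels, whereas 2 biological replicates are described in the methods. Groups were taken from sample titles, since the genotype entry reads wild type throughout. The deposited lists give start, end and width in 50 bp steps, the authors' score by which they ordered peaks, a log2 fold over input, the −log10 of a Poisson p-value and an FDR (q-value). The deposited FDR reached 0.350 in WT, 0.186 in Shh-/- and 0.109 in the double mutant. Only positions, order, FDR and, within WT, the log2 fold were used. Read depth was not used here.

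Domains were matched to GENCODE M21 basic starts (GRCm38, the assembly of mm10). No peak lay beyond the end of the 21 chromosomes compared. Overlap of at least 1 bp counted. Wilson 95% intervals cover counting error over domains and no variation between embryos, and no p-value was computed. Python 3.11.15, numpy 2.4.6 and pandas 2.3.3 were used. In a check of the code, planted shrinking, growth, splitting or no change was recovered in 306 of 306 simulated domains. These had no other WT peak nearby and the planted changes lay past the cut-offs. The check therefore does not cover domains with neighbouring peaks or changes near the cut-offs. Named genes were the 12 widest domains, the 10 lowest and 10 highest ratios per mutant, the 5 most split per mutant, the 10 highest and 5 lowest ratios between mutants, and members of gene lists. Other genes, all among those shrunk or grown past 1.5, were named after their values were seen. Domains and lists were chosen with earlier results of these data known. Alternatives were FDR below 0.05, equal peak numbers, equal covered length, flanks of 0 and 5 kb, widths of 1000 and 2000 bp, merging of peaks within 500 bp, autosomes, a factor of 2 and a 1 kb promoter window. Merging within 100 bp and leaving out histone domains were added after the data were seen.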

Additional observations from a re-analysis of the deposited data

How the results depend on the processing

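No paired analysis was possible because the deposited lists hold no value per replicate, and for the same reason no replicate could be left out. The 11 planned and 2 added alternatives kept the number of domains, the split count in Shh-/- and the median ratios of the domains within their tolerance (a factor of 1.5 for counts and 1.1 for medians), except where given here; causes were not tested unless the construction shows them. With FDR below 0.05 required, 8 domains were grown in Shh-/- and 39 in the double mutant. With equal covered length, the shrunk, grown and split counts were 50, 3 and 218 in Shh-/- and 15, 8 and 33 in the double mutant. The shares of all WT promoter peaks were then 20.9%, 15.8% and 3.89% in Shh-/-, and 32.5%, 13.0% and 0.499% in the double mutant. Their median double mutant ratio was 1.0. Without flanks, no ratio to WT could exceed 1, so grown counts were 0 in both mutants by construction. Without flanks 11 domains were wider in the double mutant than in Shh-/-, against 24.8% of all WT promoter peaks. The medians of all promoter peaks were 0.875 and 1.0. Lhx2 (0.827) and Mecom (0.987) then had Shh-/- ratios below 1, as any span not fully covered must. With 5 kb flanks, 8 and 35 domains were grown. A minimum of 1000 bp gave 1978 domains, with 95 shrunk, 40 grown and 545 split in Shh-/-, 18, 107 and 195 in the double mutant, and 177 wider in it than in Shh-/-. A minimum of 2000 bp gave 313 domains, with 15, 3 and 144 in Shh-/-, 1, 4 and 45 in the double mutant, and 33 wider. Merging peaks within 500 bp gave 1745 domains, with 137, 48 and 93 in Shh-/-, 33, 100 and 27 in the double mutant, and 163 wider. A factor of 2 left 3 shrunk and 0 grown in Shh-/-, 0 and 1 in the double mutant, and 9 wider. Equal peak numbers, autosomes alone, a 1 kb promoter window, merging within 100 bp and leaving out histone domains moved no count by more than 1.5 times. The lists carry no depth or spread, so a small difference in width cannot be told from variation between embryos.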

Other observations

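Other gene lists gave these values. The 6 heat shock domains had median ratios to WT of 0.897 in Shh-/- and 1.04 in the double mutant, and 5 of them were below WT in Shh-/-, as were 52.7% of all domains. Hspe1 and Hspd1, mitochondrial chaperonin genes with a shared promoter, were covered over 3050 bp in WT, 2650 bp in Shh-/- and 3450 bp in the double mutant. The 5 domains of immediate early genes were all below WT in Shh-/- (median 0.906, against 52.7% of all domains below WT), and Mcl1, an apoptosis inhibitor gene, had 2500, 1650 and 2200 bp. The 8 Wnt and Notch domains had medians of 1.05 and 1.28, and all 8 had more covered length in the double mutant than in Shh-/-, as did 77.0% of all domains. Wnt5a, a ligand gene of the distal limb, had 2700, 3050 and 4000 bp. The 6 FGF signalling domains had medians of 0.973 and 1.24, with Dusp6, a phosphatase gene that responds to FGF, at 5850, 5700 and 7150 bp for its wider domain. The 11 chromatin regulator domains had medians of 1.07 and 1.12, and Ep300, which encodes an H3K27 acetyltransferase, had 1500, 2150 and 2450 bp. Igf2, an imprinted growth factor gene, had 5150, 4550 and 5950 bp at its wider domain. Zic2, a zinc finger gene of the anterior list, had 2850, 4050 and 4400 bp.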
